A study of Mus musculus with 5 samples.

Results

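The cells described here come from MC38 tumors, host cells included, and their hashtag placed them in CPI + ABT-317 or in CPI. They were 12697 of the 57094 barcodes that passed the filters in the 2 tumor reactions. MC38 is a mouse colon carcinoma line, and it was grown under the skin of young adult male wild-type C57BL/6J mice. CPI mice received anti-CTLA4 and anti–PD-1 at days 3, 6, and 9 and vehicle at day 12. CPI + ABT-317 mice received the same antibodies on the same days and then 20 mg/kg of ABT-317, a JAK1 inhibitor, at day 12. The other 2 groups received isotype antibodies with vehicle or with ABT-317 on those days and are given as background. The sources count these days from implantation in the methods and from enrollment at a set tumor size in a legend. Tumors of all groups were taken at day 15, and CD45+ and CD45- cells were sorted and labeled with hashtag antibodies. They were then mixed in equal parts, and each reaction pooled the 4 treatments. The comparison asks what JAK1 inhibition after checkpoint blockade changed in the tumor, here in the mix of cells and in the lineages that are not T cells.

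A barcode was a member if it held at least 200 genes and under 10% mitochondrial UMIs (unique molecular identifiers, each marking 1 captured molecule) and if 1 of the 4 hashtags of its reaction led. The log count of a hashtag, minus the median of that hashtag over all barcodes, had to exceed the next by at least 1 natural log unit. The rule gave 3545 and 2359 cells to CPI and 3742 and 3051 cells to CPI + ABT-317 in reactions 1 and 2. The barcode sequences of the 4 hashtags are shown because they alone decide which treatment a cell belongs to, in the order CPI in reactions 1 and 2 and CPI + ABT-317 in reactions 1 and 2.

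TSCam302: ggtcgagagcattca
TSCam306: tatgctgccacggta
TSCam303: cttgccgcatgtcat
TSCam307: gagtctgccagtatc

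JAK1 is a kinase bound to the receptors of interferons and of many interleukins. It passes their signal to STAT proteins, which enter the nucleus and switch on genes such as the guanylate-binding proteins, the chemokine Cxcl9, and the parts of antigen presentation on MHC class I. In tumors under checkpoint blockade, T cells and NK cells are the main sources of IFN-γ, and macrophages and other myeloid cells are among the cells that respond to it. Myeloid cells also carry genes held to restrain T cells, such as arginase 1 (Arg1) and inducible nitric oxide synthase (Nos2).

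A hashtag marks a treatment and not a mouse, so the unit of comparison was the sum over the cells of a class in 1 treatment and reaction. The labels do not say whether the reactions hold cells of different mice, and p-values therefore measure only the spread between these sums. With 2 sums against 2, an exact permutation test cannot go below a p of 0.33, so values below come from edgeR models. These held the 8 sums of all treatments, except in Arg1 myeloid cells, where only the 4 sums of CPI and CPI + ABT-317 had enough cells. The reactions held 435031691 and 377184807 gene UMIs in 37774 and 27582 barcodes, and 1068 barcode sequences occurred in both. No hashtag led in 52.3% and 52.1% of barcodes that passed the filters.

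The CPI and CPI + ABT-317 cells differed in depth and in how clearly their hashtag stood out. The median was 3037 and 3638 UMIs per CPI cell and 17540 and 22967 UMIs per CPI + ABT-317 cell. Median mitochondrial shares were 1.80% and 1.33% in CPI and 1.74% and 1.40% in CPI + ABT-317. The median depth was 2303 and 2504 UMIs against 3494 and 3522.5 UMIs in Arg1 myeloid cells, and in macrophages 1459.5 and 2300 UMIs against 3679 and 4660 UMIs. The own hashtag had a median of 174 and 108 UMIs in CPI and 616.5 and 543 UMIs in CPI + ABT-317. In CPI T cells it was 93 and 59 UMIs, beside 60 and 43 UMIs of the highest other hashtag, while the CPI hashtag was at 14 and 10 UMIs in T cells called CPI + ABT-317. The own hashtag was at least 2 times the highest other one in 28.8% and 24.7% of CPI T cells and in 100% of CPI + ABT-317 T cells of either reaction. In Arg1 myeloid cells the same shares were 80.7% and 74.7% against 98.6% and 100%. They were lower in CPI for the other classes tested below. Macrophages were at 62.9% and 50.5% against 93.7% and 100%, and gene-rich cells at 34.6% and 48.1% against 96.9% and 100%. The part of this weaker labeling in the results was not tested beyond the stricter hashtag rules given below.

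**Figure D1:**
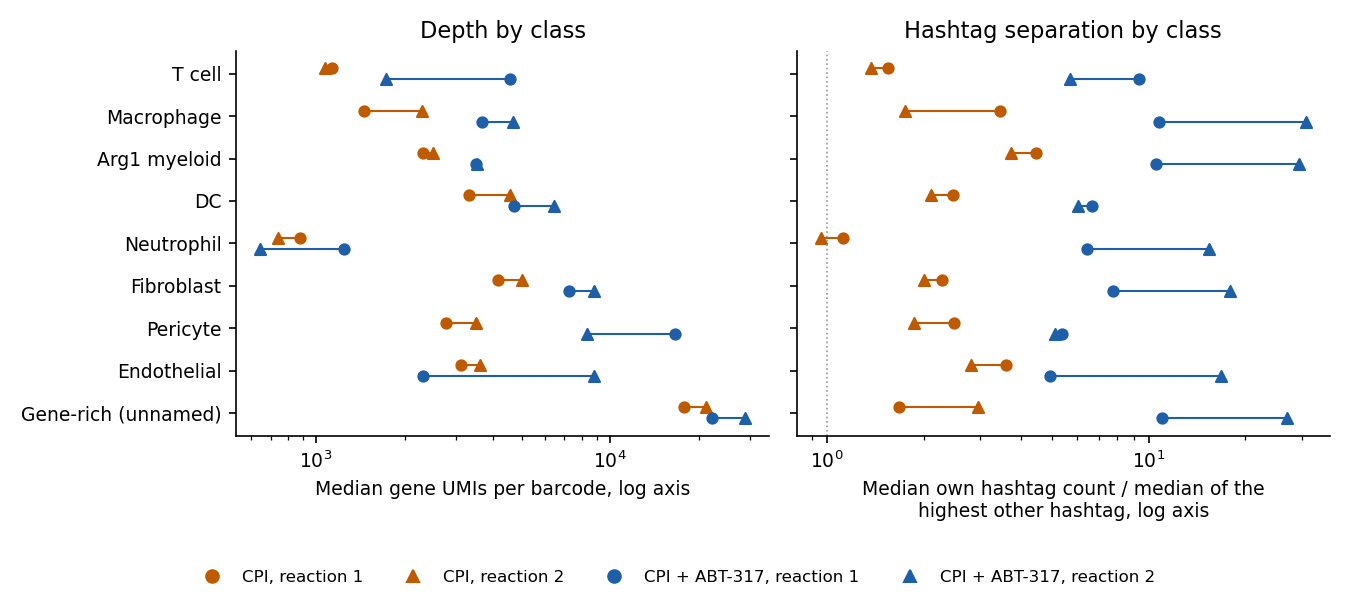
Depth and hashtag separation of CPI and CPI + ABT-317 cells by class, with 1 point per treatment and reaction. The left panel gives the median gene UMIs per cell on a log axis and the right panel the ratio of the median of the own hashtag to the median of the highest other hashtag on a log axis; of the classes drawn, gene-rich cells are the deepest, and in each of them both CPI points have a lower ratio than both CPI + ABT-317 points, with CPI neutrophils close to 1.

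Cells were grouped on their genes into 16 clusters, and a cluster took a name only where the markers of that cell type led it. The immune compartment, which was mixed at equal parts before loading, was 37.4% and 40.4% of CPI cells and 16.8% and 20.7% of CPI + ABT-317 cells. It was 53.0% and 38.1% with isotype antibodies and 10.1% and 11.9% with isotype antibodies and ABT-317. Because this share joins that mixing with how many cells of each kind got a hashtag, the mix was taken within the immune and the non-immune compartment. Calling was also unequal within a compartment. By marker UMIs of single barcodes, 13.9% of T cells, 59.5% of macrophages, and 67.8% of neutrophils had no hashtag call. The part of this in the shares below was not tested.

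Of the clustered immune classes, T cells were the largest in CPI and a rare one in CPI + ABT-317. In CPI they were 677 of 1326 immune cells (51.1%, exact 95% binomial interval 48.3% to 53.8%) in reaction 1 and 494 of 954 (51.8%, 48.6% to 55.0%) in reaction 2. In CPI + ABT-317 they were 10 of 630 (1.59%, 0.764% to 2.90%) and 13 of 632 (2.06%, 1.10% to 3.49%). These few barcodes held 26 and 60 UMIs of T cell markers beside 410 and 164 of macrophage markers and 52 and 442 of Arg1 myeloid markers. Whether all of them are T cells is therefore uncertain. T cells of CPI held 2875 and 3023 UMIs of T cell markers beside 4832 and 8023 of macrophage markers and 885 and 835 of Arg1 myeloid markers. The difference in share was 28-fold (log2 −4.81 ± 0.16 SE, adjusted p = 3.13e-07), with both CPI sums above both CPI + ABT-317 sums. In the mix tests 37.5% of the 8 immune classes and 71.4% of the 7 non-immune classes passed an adjusted p of 0.05 in either direction, and with the reaction as a block 7 of the 8 and 6 of the 7. T cells were also few without checkpoint blockade, 12 and 4 with isotype antibodies and 8 and 7 with isotype antibodies and ABT-317. When barcodes were classed by marker UMIs alone, with no clustering, 693 barcodes of all that passed were T cells, of which 85.1% carried the CPI hashtag call, 13.9% had no call, and 4 barcodes were CPI + ABT-317. In that classing CPI held 292 and 298 T cells beside 759 and 571 macrophages, so that macrophages were then the more numerous.

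Macrophages, the C1q- and Adgre1-positive phagocytes, were the larger part of the immune cells in CPI + ABT-317. They were 302 of 1326 (22.8%) and 218 of 954 (22.9%) immune cells in CPI and 445 of 630 (70.6%) and 489 of 632 (77.4%) in CPI + ABT-317, a 3.24-fold difference (log2 1.70 ± 0.07, adjusted p = 4.44e-07). Since shares within a compartment sum to the whole, a lower share of T cells raises the others. With classes taken from marker UMIs of single barcodes the direction of the macrophage share turned (log2 −0.71, adjusted p = 0.00404). It thus depends on how classes are drawn. That classing gave 759 and 571 macrophages in CPI and 758 and 770 in CPI + ABT-317. It gave 132 and 68 Arg1 myeloid barcodes against 581 and 547, and 85 and 55 dendritic ones against 749 and 659. The clusters held 71 and 70 Arg1 myeloid and 8 and 6 dendritic cells in CPI + ABT-317. The part of these numbers in the turn was not tested. Among all called cells, macrophages were 302 of 3545 and 218 of 2359 in CPI and 445 of 3742 and 489 of 3051 in CPI + ABT-317.

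Arg1 myeloid cells, named for Arg1, Spp1, and other genes of hypoxic tumor myeloid cells, were 14.1% and 16.1% of immune cells in CPI and 11.3% and 11.1% in CPI + ABT-317 (log2 −0.43 ± 0.17, adjusted p = 0.0618, and 0.00327 with the reaction as a block). The lower share of T cells in CPI + ABT-317 raises this share as well. The counts were 187 and 154 cells beside 302 and 218 macrophages in CPI. In CPI + ABT-317 they were 71 and 70 cells beside 445 and 489 macrophages. Dendritic cells, which carry antigen to T cells, were 39 and 34 cells (2.94% and 3.56%) in CPI and 8 and 6 cells (1.27% and 0.949%) in CPI + ABT-317 (log2 −1.53 ± 0.53, adjusted p = 0.0501, and 0.00473 with the block). Both differences had the opposite sign with classes from marker UMIs (log2 1.61 and 2.42). Of the dendritic cells of that classing, 109 in CPI and 1403 in CPI + ABT-317 matched the plasmacytoid list, which holds Cox6a2, a leading gene of the gene-rich cluster described below. Those matching the other dendritic lists were 8 against 2 (cDC1), 5 against 1 (cDC2), and 18 against 2 (mregDC) barcodes over both reactions, lower in CPI + ABT-317 as in the clusters. Neutrophils were 25 and 12 cells against 19 and 11 cells, and their share did not pass the test (log2 0.57, adjusted p = 0.291). It passed in opposite directions under other rules, at log2 1.98 (adjusted p = 0.0285) where the own hashtag had to be at least 2 times the next and at −2.03 (adjusted p = 5.90e-04) with classes from marker UMIs. The hashtag rule left 5 and 1 CPI neutrophils against 19 and 11. Marker UMIs gave 26 and 18 against 10 and 10, in an immune total that included the plasmacytoid-list barcodes. The part of these filters in either value was not tested. An unnamed cluster counted with the immune cells was at 28 and 16 cells in CPI and at 0 cells in both sums of CPI + ABT-317, which allows a share of up to 0.476% and 0.475%. In CPI it held markers of fibroblasts, at 16402 and 11142 CPM, beside those of macrophages, at 10848 and 21553 CPM. Leaving out barcodes with 3 UMIs of the other compartment's markers left 1 and 0 of its CPI cells, and the difference did not pass (adjusted p = 0.631).

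Stromal and vessel cells were also rarer among the non-immune cells of CPI + ABT-317. Fibroblasts, the collagen-producing cells of the stroma, were 1241 of 2219 (55.9%) and 857 of 1405 (61.0%) non-immune cells in CPI and 23 of 3112 (0.739%) and 27 of 2419 (1.12%) in CPI + ABT-317 (log2 −5.98 ± 0.58, adjusted p = 1.51e-10). Pericytes, which wrap small vessels, were 150 and 110 cells against 2 and 3 cells, and endothelial cells, which line them, 85 and 60 cells against 5 and 6 cells (log2 −6.24 and −4.29, adjusted p = 2.68e-06 and 9.36e-06). The isotype group held 20 and 5 fibroblasts, and the group with isotype antibodies and ABT-317 33 and 30. In CPI fibroblasts the own hashtag had a median of 141 and 86 UMIs, beside 62 and 43 UMIs of the highest other hashtag, against 395 and 393 UMIs beside 51 and 22 UMIs in CPI + ABT-317. With classes from marker UMIs the fibroblast difference was log2 0.09 (adjusted p = 0.102), from 1682 and 1039 barcodes in CPI against 1056 and 745. The gene-rich cells described below also carried fibroblast markers, and their part in this was not tested. Without the barcodes with 3 UMIs of the other compartment's markers the fibroblast difference was log2 −6.42 (adjusted p = 1.04e-04), with 26 and 22 CPI cells left. There the pericyte and endothelial differences were log2 −4.45 and −3.96 and did not pass (adjusted p = 0.061 and 0.171), with 9 and 4 and with 5 and 4 CPI cells left. Of each of these classes 0 cells were left in both sums of CPI + ABT-317. The sizes of these differences therefore depend on how the model treats a count of 0.

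Most non-immune cells of CPI + ABT-317 were in 1 gene-rich cluster. Its cells held a median of 17883 and 21204.5 UMIs in CPI and 22183 and 28751 UMIs in CPI + ABT-317, it was led by Cox6a2, Cst6, Phgdh, and Rhox5, and none of the marker lists named it. Ptprc, which encodes CD45, was at 3.01 CPM (UMIs of the gene per 1000000 UMIs) over the cluster against 311 CPM in the larger macrophage cluster, and Y-linked genes of the male hosts were at 0.935 CPM against 81.5 CPM. Gene-rich cells were 292 (13.2%) and 160 (11.4%) of non-immune cells in CPI and 2476 (79.6%) and 2037 (84.2%) in CPI + ABT-317 (log2 2.74 ± 0.14, adjusted p = 1.06e-16). Requiring the own hashtag to be at least 2 times the highest other one, a rule added after the data were seen, left log2 differences of −4.10 for T cells, 1.27 for macrophages, −6.01 for fibroblasts, and 2.73 for gene-rich cells, all with an adjusted p under 0.05.

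**Figure D2:**
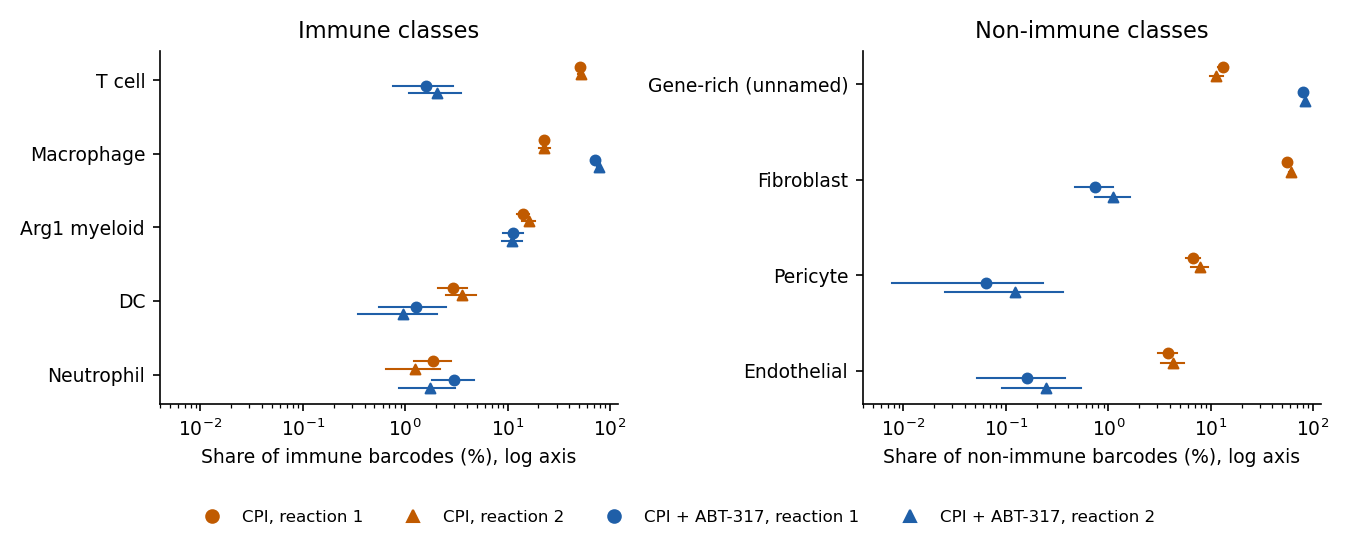
Share of each class among immune and among non-immune cells in CPI and CPI + ABT-317, on a log axis in percent, with circles for reaction 1, triangles for reaction 2, and bars for exact 95% binomial intervals. T cells lie at 51.1% and 51.8% in CPI and at 1.59% and 2.06% in CPI + ABT-317, and fibroblasts at 55.9% and 61.0% against 0.739% and 1.12%.

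Expression was compared in the 3 classes with at least 30 cells in every sum of CPI and CPI + ABT-317, which are Arg1 myeloid cells, macrophages, and gene-rich cells. T cells, fibroblasts, dendritic cells, and vessel cells had too few CPI + ABT-317 cells. Levels are given in CPM of the summed class. Counts do not separate fewer molecules per cell from a change in which cells make up a class, and the makeup did change, as given with each class.

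In Arg1 myeloid cells the genes of the IFN-γ response were higher in CPI + ABT-317 than in CPI. Of the 4618 genes tested, 207 (4.48%) were higher and 188 (4.07%) lower, 395 in all. Of the 23 genes of the IFN-γ list that were tested, 18 were higher and none lower, with a median log2 difference of 1.43 against −0.01 for all genes. With DESeq2 10 of the 23 were higher, as were 5 of 15 type I interferon and 5 of 17 MHC class I genes. Also higher with edgeR were 10 of 19 hypoxia and glycolysis genes, 9 of 15 type I interferon genes (1 was lower), 8 of 17 MHC class I genes, 5 of 9 immunosuppressive enzymes, and 3 of 5 Fcγ receptor genes (all 5 with the reaction as a block). Lower were 8 of 15 lipid-associated macrophage genes and 6 of 18 immediate early and heat shock genes, while 1 gene of each list was higher. The higher lipid-list gene was Spp1, which encodes osteopontin, at 612 and 618 CPM in CPI and at 1835 and 891 CPM in CPI + ABT-317 (log2 1.19 ± 0.24, adjusted p = 0.00677), and with DESeq2 no gene of either list was higher. The cells of the class were not the same in both groups. Sub-cluster 43 held 126 and 117 of the CPI cells (67.4% and 76.0%) but 3 and 4 of the CPI + ABT-317 cells, and sub-cluster 44 held 61 and 37 CPI cells (32.6% and 24.03%) and 68 and 66 CPI + ABT-317 cells (95.8% and 94.3%). Within sub-cluster 44 alone, a comparison added after the data were seen, 13 of 2809 genes (0.463%) passed, 10 higher and 3 lower. There 1 of 22 IFN-γ genes was higher, with a median of log2 0.74, and no type I interferon gene of 11, no MHC class I gene of 17, and no immunosuppressive enzyme of 9 passed (medians 0.79, 0.39, and 0.89). Of the hypoxia list 1 of 18 genes was higher (median 0.57), and of the Fcγ receptors 1 of 5 (median 0.84). The lipid-associated list had 1 higher gene, Spp1, and no lower gene among 12, and its median turned from log2 −0.53 in the class to 0.20. No immediate early or heat shock gene of 17 passed (median −0.08, against −0.65 in the class). Without CPI in reaction 1 the class gave 131 higher genes, and without CPI in reaction 2 it gave 120 lower genes.

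Ly6a (chr15:74994877-74998031, GRCm38, ENSMUSG00000075602), which encodes the interferon-induced surface protein Sca-1, was the most significant of the IFN-γ list. It was at 265 and 253 CPM in CPI and at 1610 and 1817 CPM in CPI + ABT-317, both of the latter far above both of the former. The difference was 6.82-fold (log2 2.77 ± 0.18, adjusted p = 6.95e-07), and within sub-cluster 44 it was log2 1.69 (adjusted p = 0.00549). Nos2 (chr11:78920787-78960254), which makes nitric oxide in activated macrophages, was at 39.0 and 27.7 CPM in CPI and at 358 and 237 CPM in CPI + ABT-317. That is 9.11-fold (log2 3.19 ± 0.28, adjusted p = 1.23e-05), and log2 1.51 with an adjusted p of 0.0589 within sub-cluster 44. Gbp2, a guanylate-binding protein that attacks the vacuoles of intracellular microbes, was at 95.5 and 83.0 CPM against 317 and 299.5 CPM (log2 1.83 ± 0.21, adjusted p = 1.29e-04). Il18bp, the soluble decoy of IL-18, was at 19.5 and 25.4 CPM against 124 and 117 CPM (log2 2.47 ± 0.34, adjusted p = 4.39e-04).

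Cxcl9, a ligand of CXCR3 that draws activated T cells, was at 185 and 184 CPM in CPI and at 409 and 463 CPM in CPI + ABT-317 (log2 1.28 ± 0.19, adjusted p = 8.72e-04). Within sub-cluster 44 the Cxcl9 difference was 0.28 (adjusted p = 0.829). Cd274, which encodes PD-L1, was at 289 and 260.5 CPM against 532 and 533 CPM (log2 1.00 ± 0.18, adjusted p = 0.00324). The 5 tested members that did not pass were Irf1, Irf8, Cxcl10, Tap1, and Socs1, with log2 differences of 0.18 to 0.85. With the block Irf8 and Cxcl10 passed as well (adjusted p = 0.0167 and 0.0071), which made 20 of 23. Gbp, Ly6, and H2-Q genes have near-identical copies, so counting may divide their reads between copies.

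**Figure D3:**
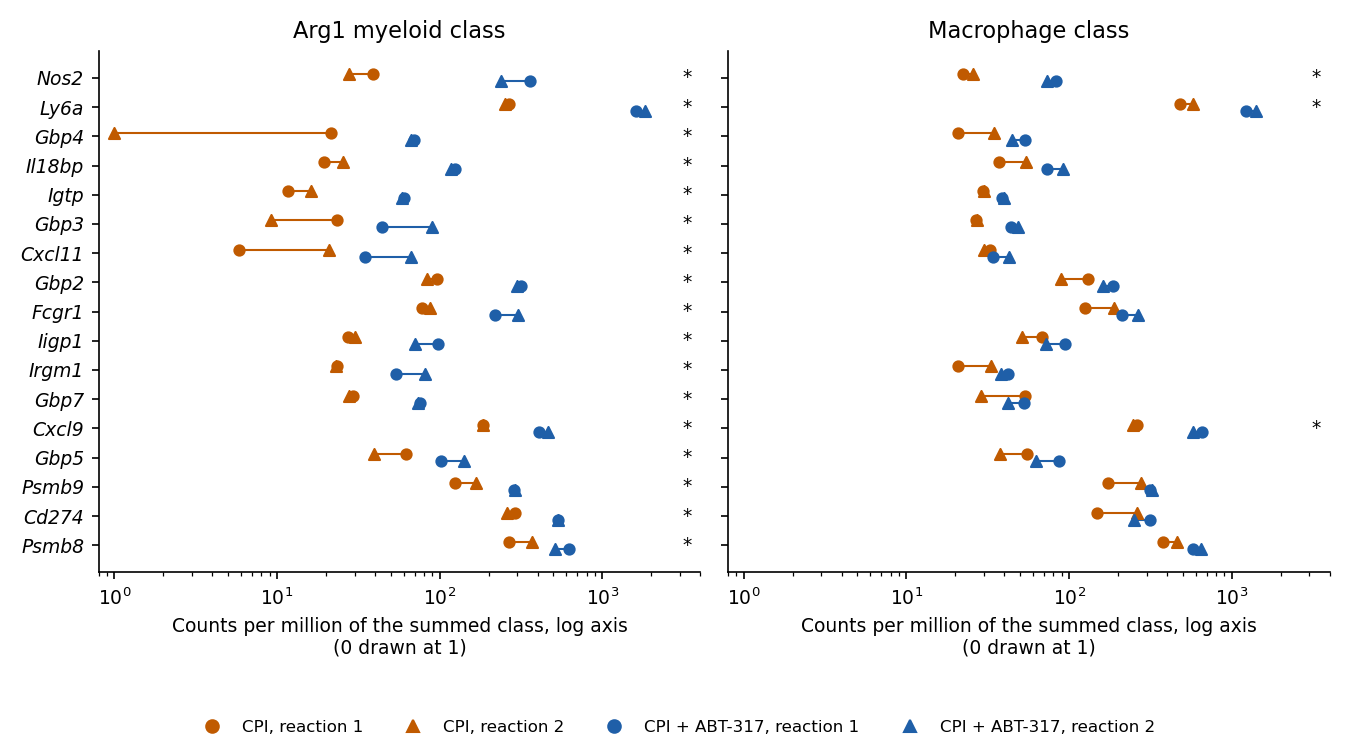
Levels of 17 IFN-γ response genes that were higher in Arg1 myeloid cells, shown in Arg1 myeloid cells (left) and macrophages (right), in CPM on a log axis with 1 point per treatment and reaction and a level of 0 drawn at 1. An asterisk marks an adjusted p of 0.05 or less in that class, which 3 of these genes carry in macrophages; Ly6a lies at 265 and 253 CPM in CPI against 1610 and 1817 CPM in CPI + ABT-317 in Arg1 myeloid cells.

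Promoters of these genes are shown because the interferon pathway acts through the gamma-activated site, TTCNNNGAA, and the interferon-stimulated response element, searched here as GAAA, any 2 bases, and GAAA again. Both can be looked for in sequence. In the RefSeq windows of GRCm38.p6 that run from 250 bases before to 50 bases after a start site, read on both strands, 8.298% of 32851 windows held the first motif and 3.443% the second. Of the 18 genes that were higher, 12 had a window, of which 5 held the first motif and 6 the second. A match is a description of the letters and not a binding site. The 4 windows below, chosen after the matches were seen, are written in the direction of the gene with the matches in capitals. Positions of the first base of a match count back from the start site, and are −109 in Fcgr1, −59 in Gbp2, −106, −87, and −53 in Gbp7, and −45 and −34 in Igtp.

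Fcgr1, chr3:96293920-96294219, minus strand: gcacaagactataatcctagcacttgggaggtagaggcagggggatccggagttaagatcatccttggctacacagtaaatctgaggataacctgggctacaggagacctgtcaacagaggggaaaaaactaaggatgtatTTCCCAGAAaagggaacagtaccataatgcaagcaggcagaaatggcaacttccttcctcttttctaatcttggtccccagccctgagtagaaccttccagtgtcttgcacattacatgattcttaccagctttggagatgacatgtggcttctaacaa
Gbp2, chr3:142620413-142620712, plus strand: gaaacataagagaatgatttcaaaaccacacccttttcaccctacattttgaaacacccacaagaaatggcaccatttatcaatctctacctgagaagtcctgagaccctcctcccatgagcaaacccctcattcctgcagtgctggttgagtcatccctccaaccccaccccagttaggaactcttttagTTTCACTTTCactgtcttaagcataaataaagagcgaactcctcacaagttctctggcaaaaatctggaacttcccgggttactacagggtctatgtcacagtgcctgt
Gbp7, chr3:142530086-142530385, plus strand: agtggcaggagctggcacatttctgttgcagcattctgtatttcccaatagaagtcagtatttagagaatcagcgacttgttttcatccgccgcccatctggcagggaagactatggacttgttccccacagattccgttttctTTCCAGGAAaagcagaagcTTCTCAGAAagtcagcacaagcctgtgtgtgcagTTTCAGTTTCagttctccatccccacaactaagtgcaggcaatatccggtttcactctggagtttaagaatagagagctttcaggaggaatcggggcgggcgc
Igtp, chr11:58199306-58199605, plus strand: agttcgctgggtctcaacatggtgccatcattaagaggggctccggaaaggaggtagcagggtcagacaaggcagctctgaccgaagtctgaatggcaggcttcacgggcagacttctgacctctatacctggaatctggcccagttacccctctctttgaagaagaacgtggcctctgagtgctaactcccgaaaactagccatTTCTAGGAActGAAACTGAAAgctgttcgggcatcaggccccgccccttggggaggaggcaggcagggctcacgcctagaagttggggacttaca

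In the same class these 4 genes were at 78.0 and 87.6 CPM against 219 and 303 CPM (Fcgr1, the high-affinity receptor for IgG), 95.5 and 83.0 against 317 and 299.5 CPM (Gbp2), 29.2 and 27.7 against 76.1 and 73.9 CPM (Gbp7), and 11.7 and 16.1 against 60.2 and 58.3 CPM (Igtp, an immunity-related GTPase). All 4 were taken from the genes that passed, so their separation is not a separate result.

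The type I interferon and MHC class I lists had smaller median differences than the IFN-γ list in the same class. The medians were log2 1.19 and 0.76 against 1.43, and the lists were not tested against each other. Single genes could lie above the IFN-γ median, as Rtp4 did. Rtp4, a receptor chaperone induced by interferon, was at 21.4 and 13.8 CPM in CPI and at 101 and 85.6 CPM in CPI + ABT-317 (log2 2.42 ± 0.38, adjusted p = 0.00134), and Bst2, which tethers budding viruses, at 351 and 378 CPM against 846 and 735 CPM (log2 1.17 ± 0.18, adjusted p = 8.89e-04). Ifih1, the RNA sensor MDA5, was the exception on this list, at 462 and 403 CPM against 143 and 144 CPM (log2 −1.55 ± 0.20, adjusted p = 4.07e-04). Of the MHC class I list, the immunoproteasome subunit Psmb9 was at 125 and 166 CPM against 285 and 292 CPM (log2 1.04 ± 0.21, adjusted p = 0.0063), and all 17 tested members had a positive difference. Of 7 MHC class II genes tested, H2-Eb1 alone passed, at 4279 and 4276 CPM against 2130 and 3022 CPM (log2 −0.68 ± 0.18, adjusted p = 0.0305). With DESeq2 it did not pass (adjusted p = 0.0554), and with the block 2 of the 7 were lower.

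In the same class, 5 of 9 enzymes listed as using up arginine or releasing inhibitory products were higher in CPI + ABT-317. None of the 9 passed within sub-cluster 44. Arg1 (chr10:24915221-24927484), which splits arginine, was at 454 and 500.2 CPM in CPI and at 1952 and 1712 CPM in CPI + ABT-317. The groups lay well apart, 3.97-fold (log2 1.99 ± 0.17, adjusted p = 8.75e-06), and the difference was 0.95 within sub-cluster 44 (adjusted p = 0.0764). Acod1, which makes itaconate, was at 370 and 334 CPM against 675 and 988 CPM (log2 1.28 ± 0.21, adjusted p = 0.00176). Nt5e, which encodes the adenosine-producing enzyme CD73, was at 9.75 and 18.4 CPM against 69.7 and 66.1 CPM (log2 2.32 ± 0.44, adjusted p = 0.00434). Arg1, and with it Spp1, Il1a, and the hypoxia-list gene Ero1a, was a marker of the class, so these levels are not independent of how the class was drawn.

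Of the hypoxia and glycolysis list 10 of 19 genes were also higher, and 1 of 18 within sub-cluster 44. Aldoa, the aldolase of glycolysis, was at 712 and 758 CPM in CPI and at 1616 and 1591 CPM in CPI + ABT-317 (log2 1.17 ± 0.16, adjusted p = 4.88e-04, and log2 1.30 with an adjusted p of 0.0214 within sub-cluster 44). Ldha, which makes lactate, was at 563 and 507 CPM against 1138 and 1175 CPM (log2 1.16 ± 0.17, adjusted p = 7.51e-04). Slc2a1, the glucose transporter GLUT-1, was at 91.6 and 104 CPM against 219 and 226 CPM (log2 1.23 ± 0.22, adjusted p = 0.00307). Hif1a itself did not pass, at 288.5 and 288 CPM against 190 and 229.5 CPM (adjusted p = 0.248).

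Of other fixed lists, inflammatory cytokines had 3 of 10 genes higher, dendritic cell maturation 1 of 8, chemokines 2 higher (4 with the block) and 3 lower of 17, and matrix proteases and their inhibitors 2 higher and 2 lower of 8. Fcgr4, which binds mouse IgG2a, was at 89.7 and 50.7 CPM in CPI and at 250 and 311 CPM in CPI + ABT-317 (log2 2.01 ± 0.27, adjusted p = 4.07e-04, and log2 1.71 with an adjusted p of 0.0296 within sub-cluster 44). Il1a and Il1b, which encode the IL-1 cytokines, were at 238 and 210 CPM and at 2197 and 2153 CPM in CPI, and at 529 and 829 CPM and 3990 and 6099 CPM in CPI + ABT-317 (log2 1.64 ± 0.23 and 1.27 ± 0.20, adjusted p = 5.16e-04 and 0.00116). The Il1b difference was −0.03 within sub-cluster 44. Cd80, a costimulator of T cells, was at 37.0 and 25.4 CPM against 95.1 and 113 CPM (log2 1.75 ± 0.34, adjusted p = 0.00473). Mmp13, a collagenase, was at 23.4 and 11.5 CPM against 139 and 222 CPM (log2 3.34 ± 0.39, adjusted p = 1.29e-04), and Ifitm1, an interferon-induced membrane protein, at 133 and 96.8 CPM against 681 and 1330 CPM (log2 3.17 ± 0.30, adjusted p = 2.09e-05).

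Lower in CPI + ABT-317 were Lyz1, Retnla, and Gdf15. Lyz1, a lysozyme with the near-identical copy Lyz2, was at 639 and 641 CPM in CPI and at 6.34 and 3.89 CPM in CPI + ABT-317, from 328 and 278 UMIs against 2 and 1 UMIs (log2 −6.80 ± 0.35, adjusted p = 4.88e-08). Retnla, a marker of IL-4–driven macrophages, was at 105 and 258 CPM against 0 UMIs in both sums. Set against the limit of 3 UMIs over the group, 5.24 CPM, it was at least 33.5-fold lower in CPI + ABT-317. Gdf15, a stress cytokine, was at 365 and 419.5 CPM against 38.03 and 11.7 CPM (log2 −3.85 ± 0.32, adjusted p = 8.28e-06).

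Of the lipid-associated list, Fabp5, a fatty acid–binding protein, was at 1573 and 1906 CPM in CPI and at 678 and 482 CPM in CPI + ABT-317 (log2 −1.53 ± 0.19, adjusted p = 2.54e-04). Fabp4 was at 87.7 and 154 CPM against 9.51 and 3.89 CPM (log2 −3.99 ± 0.55, adjusted p = 4.76e-04), and Abca1, a cholesterol exporter, at 581 and 585.5 CPM against 301 and 288 CPM (log2 −0.94 ± 0.18, adjusted p = 0.00473). Gpnmb was at 261 and 332 CPM against 139 and 81.7 CPM (log2 −1.35 ± 0.25), with the sign turned within sub-cluster 44 (log2 0.87). Jun, of the immediate early genes that tissue digestion can also induce, was at 996 and 1042 CPM against 342 and 354 CPM (log2 −1.502 ± 0.18, adjusted p = 1.69e-04). Lyz1, Gdf15, Retnla, and Gpnmb were leading genes of sub-cluster 43, and Nos2, Ly6a, Ifitm1, and Il1b of sub-cluster 44. The summed markers of T cells were at 54.6 and 46.1 CPM in CPI and 44.4 and 73.9 CPM in CPI + ABT-317 and those of fibroblasts at 474 and 205 CPM against 276 and 101 CPM, overlapping in both cases. Neutrophil markers were at 480 and 431 CPM against 811 and 1272 CPM and adipocyte markers, Fabp4 among them, at 191 and 254 CPM against 44.4 and 7.78 CPM. Their part in the result was not tested.

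In macrophages Cxcl9, Ly6a, Nos2, Arg1, and Mmp12 were higher in CPI + ABT-317, and Saa3, Wfdc17, and Ccl8 lower. Of 9754 genes tested, 33 (0.338%) were higher in CPI + ABT-317 and 60 (0.615%) lower. With the reaction as a block, which the shared reactions allow, 361 were higher and 323 lower, and all 93 genes were among them. Without CPI in reaction 1 the counts were 8 and 22, and without CPI in reaction 2 they were 64 and 56. Without CPI + ABT-317 in reaction 1 or in reaction 2, 32 or 36 genes were lower. The class joined 2 clusters in different proportions. Cluster 9, led by Ccl8, Cbr2, and Folr2, held 184 of 302 CPI cells in reaction 1 and 92 of 218 in reaction 2, but 22 of 445 and 18 of 489 CPI + ABT-317 cells, and cluster 2, led by Ccl12 and Cxcl14, held the rest. Within cluster 2 alone, 5 of 9615 genes (0.052%) passed. Ly6a and Mmp12 were higher and Saa3, Cbr2, and Gm56626 lower, the last named here only after its value was seen.

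Of the 27 IFN-γ genes tested in macrophages, 4 were higher, none was lower, 26 had a positive difference, and the median was log2 0.64 against −0.01 for all genes. With the block 18 of the 27 were higher, and within cluster 2 the list had 1 gene higher and a median of log2 0.42. None of the 24 type I interferon and 20 hypoxia and glycolysis genes passed, and 3 of 19 immediate early and heat shock genes were lower. With the block 6 and 10 genes of the first lists were higher, 1 type I gene was lower, and 12 immediate early and heat shock genes were lower. Cxcl9 (chr5:92321347-92328079) was at 262 and 248 CPM in CPI and at 658 and 580 CPM in CPI + ABT-317, and at 252 and 239 CPM with isotype antibodies and 202 and 193 CPM with isotype antibodies and ABT-317. The difference between CPI + ABT-317 and CPI was log2 1.34 ± 0.14 (adjusted p = 2.35e-04), and 0.90 within cluster 2 (adjusted p = 0.0555). Ly6a was at 482 and 575 CPM in CPI, at 1229 and 1409 CPM in CPI + ABT-317, at 616 and 703 CPM with isotype antibodies, and at 604 and 561 CPM with isotype antibodies and ABT-317 (log2 1.38 ± 0.17, adjusted p = 9.22e-04, and 0.99 with an adjusted p of 0.0306 within cluster 2). In both genes the CPI + ABT-317 sums stood above those of the other 3 groups, which lay near each other.

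Nos2 was at 22.3 and 25.5 CPM in CPI and at 82.5 and 72.7 CPM in CPI + ABT-317 (log2 1.75 ± 0.22, adjusted p = 0.00111). Arg1 was at 226 and 270 CPM in CPI, at 595 and 555 CPM in CPI + ABT-317, and at 311 CPM in both sums with isotype antibodies (log2 1.27 ± 0.17, adjusted p = 0.00182). Both were positive but did not pass within cluster 2. Mmp12, the macrophage elastase, was at 62.5 and 87.1 CPM against 425 and 273 CPM (log2 2.27 ± 0.29, adjusted p = 0.00117, and log2 1.81 with an adjusted p of 0.0452 within cluster 2). Fcgr4 was at 95.3 and 138 CPM against 223 and 238 CPM (log2 1.04 ± 0.19, adjusted p = 0.0174).

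Upp1, a uridine phosphorylase, was at 5.95 and 4.51 CPM in CPI against 26.6 and 26.0 CPM in CPI + ABT-317, from 4 and 3 UMIs in the CPI sums (log2 2.38 ± 0.40, adjusted p = 0.00931, and 0.0626 with DESeq2). Ass1, which rebuilds arginine from citrulline, was at 19.3 and 61.6 CPM against 130 and 170 CPM (log2 1.96 ± 0.35, adjusted p = 0.0157). Trem1, a receptor that amplifies inflammation, was at 16.4 and 30.05 CPM against 57.6 and 72.3 CPM (log2 1.56 ± 0.30, adjusted p = 0.0228), and Tnfrsf9, the costimulatory receptor 4-1BB, at 16.4 and 15.0 CPM against 59.2 and 49.1 CPM (log2 1.84 ± 0.35, adjusted p = 0.0213). Genes with the largest differences were named only where the groups did not overlap, so their separation is not a separate result.

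Antigen presentation genes of macrophages did not pass. All 18 MHC class I genes tested and all 9 MHC class II genes tested had positive differences, with medians of log2 0.44 and 0.36, and none passed. With the block 12 and 6 of them were higher. Cd74, the invariant chain of MHC class II, was at 6663 and 8385 CPM in CPI and at 9551 and 11128 CPM in CPI + ABT-317 (log2 0.52 ± 0.22, adjusted p = 0.353, and 1.67e-06 with the block). The costimulators Cd83 and Cd86 were at log2 −0.27 and −0.21 (adjusted p = 0.481 and 0.592, and 0.0422 with the block for Cd83).

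Saa3, Wfdc17, Ccl8, and Igf1, lower in macrophages, were also leading genes of cluster 9. Saa3, an acute-phase protein, was at 229 and 185 CPM in CPI and at 1.63 and 5.28 CPM in CPI + ABT-317, and at 2.21 and 1.22 CPM with isotype antibodies. It was log2 −5.72 ± 0.30 (adjusted p = 3.53e-07) and −4.26 within cluster 2 (adjusted p = 7.95e-04), with the 2 CPI sums above all others. Wfdc17 was at 1064 and 654 CPM against 144 and 109 CPM (log2 −2.69 ± 0.19, adjusted p = 8.93e-06), and Ccl8, a monocyte-attracting chemokine, at 1377 and 1255 CPM against 324 and 303 CPM (log2 −2.01 ± 0.23, adjusted p = 6.69e-04). Within cluster 2 these differences were −0.79 (adjusted p = 0.243) and 0.01 (adjusted p = 1.000). Cbr2, a carbonyl reductase of resident macrophages, was at 84.8 and 75.1 CPM against 4.34 and 6.09 CPM (log2 −3.83 ± 0.29, adjusted p = 1.28e-05), and Igf1, a growth factor, at 61.0 and 55.6 CPM against 10.3 and 8.53 CPM (log2 −2.57 ± 0.27, adjusted p = 3.06e-04). Jun was at 1161 and 1052 CPM against 587.5 and 556 CPM (log2 −0.89 ± 0.13, adjusted p = 0.00394). The summed T cell markers in this class were at 40.2 and 70.6 CPM in CPI and at 10.9 and 9.34 CPM in CPI + ABT-317, and those of fibroblasts at 491 and 320 CPM against 270 and 121 CPM. Their part in the result was not tested.

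**Figure D4:**
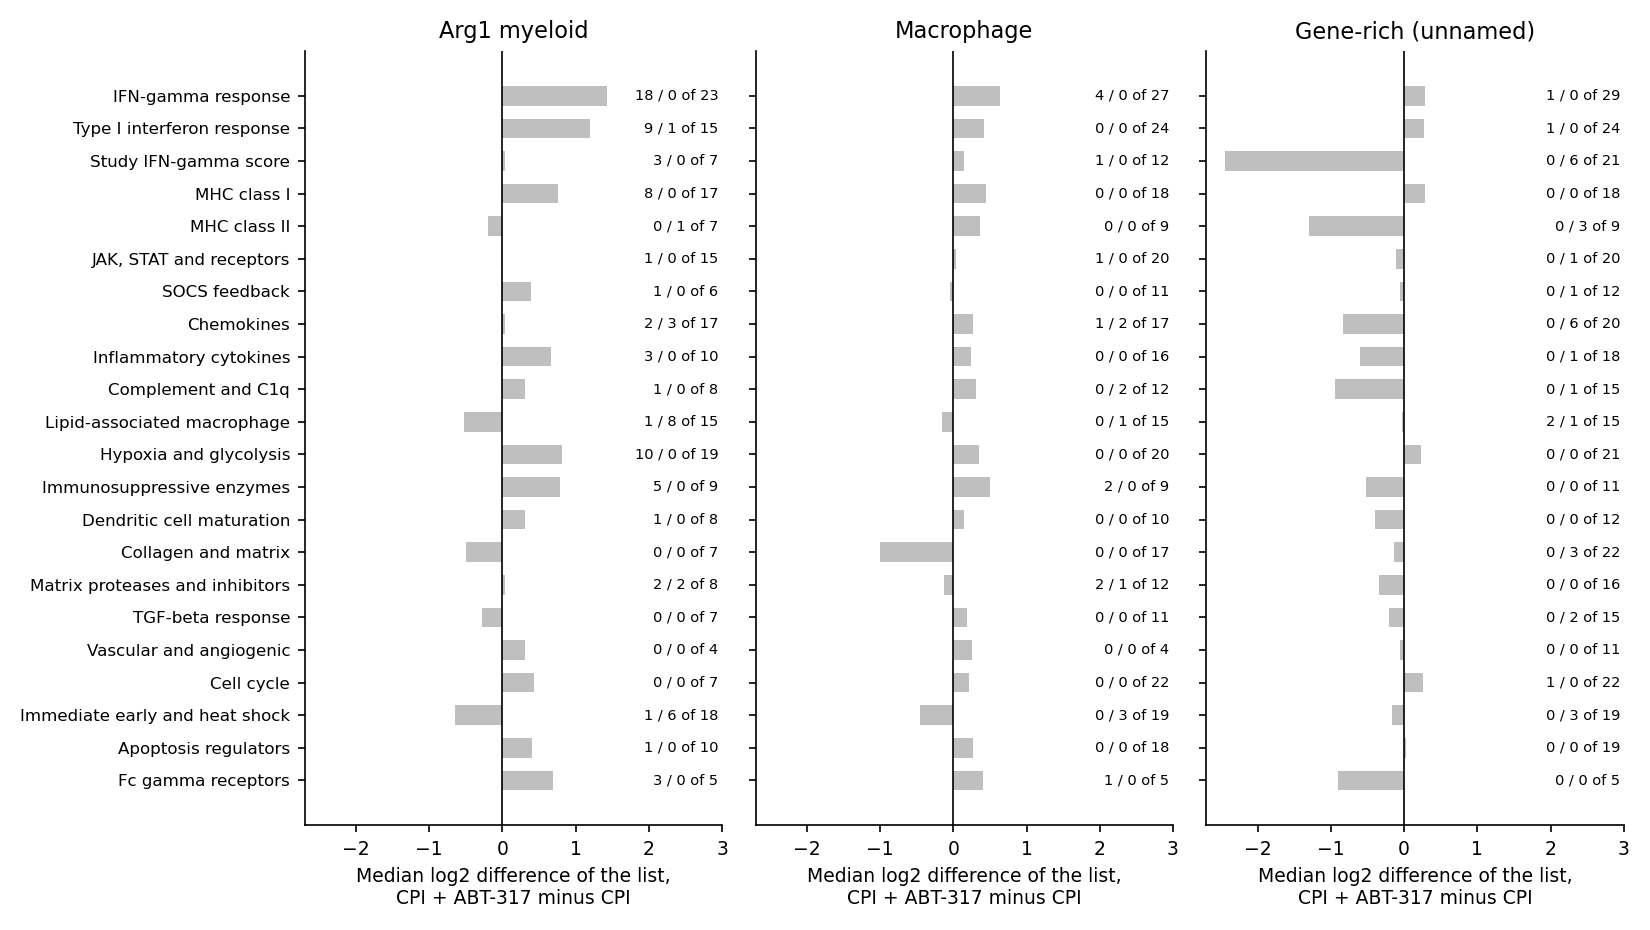
Median log2 difference, CPI + ABT-317 minus CPI, of each gene list in Arg1 myeloid cells, macrophages, and gene-rich cells (bars), with the number of genes higher / lower and the number tested written beside each bar. The IFN-γ list has its longest bar in Arg1 myeloid cells, at 1.43 with 18 of 23 genes higher, against 0.64 in macrophages and 0.28 in gene-rich cells.

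Gene-rich cells were the deepest of the 3 classes, and few of their genes were higher. Of 15453 genes tested, 17 (0.11%) were higher and 141 (0.912%) lower in CPI + ABT-317. With the reaction as a block the counts were 667 and 611 and included all 158. Leaving out 1 sum gave 2 to 9 higher genes whichever sum it was, and 16 and 30 lower genes without CPI in reaction 1 or 2 and 45 without CPI + ABT-317 in reaction 2. Thinning each cell to 1000 UMIs left 3 and 17.

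Fabp4, a fatty acid–binding protein, was at 37.7 and 40.7 CPM in CPI and at 92.9 and 97.2 CPM in CPI + ABT-317, against 57.1 and 53.4 CPM with isotype antibodies and 47.5 and 41.4 CPM with isotype antibodies and ABT-317. The CPI + ABT-317 sums were above those of all other groups (log2 1.33 ± 0.11, adjusted p = 6.15e-04). The adipocyte marker list, which includes Fabp4, summed to 38.8 and 42.1 CPM against 93.4 and 99.1 CPM. Enpp2, which encodes autotaxin, was at 7.47 and 6.70 CPM against 30.3 and 23.5 CPM, and at 35.2 and 36.6 CPM with isotype antibodies (log2 1.96 ± 0.19, adjusted p = 0.00126). Rtp4 was at 35.3 and 29.5 CPM against 54.0 and 57.8 CPM (log2 0.82 ± 0.13, adjusted p = 0.0158).

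Ly6a was at 241 and 257 CPM in CPI and at 370 and 378 CPM in CPI + ABT-317 (log2 0.64 ± 0.10, adjusted p = 0.0162). It was at 447 and 547 CPM with isotype antibodies and at 286 and 304 CPM with isotype antibodies and ABT-317, so that its highest level was not in CPI + ABT-317. It was the only 1 of 29 IFN-γ genes tested that passed, where the median was log2 0.28 and 21 were positive, and 9 were higher and 1 lower with the block. Of 24 type I interferon genes 1 was higher, and 7 with the block. No MHC class I gene passed, though 16 of 18 were positive, and with the block 14 were higher. Of the study's own IFN-γ score, which holds many T cell genes such as Icos and Zap70 and which the study applied to T cells, 6 of 21 tested genes were lower and none higher, and 12 were lower and 2 higher with the block. That score had 3 of 7 tested genes higher in Arg1 myeloid cells and 1 of 12 in macrophages (2 with the block), none lower, with medians of log2 0.03 and 0.15. H2-K1, a classical class I chain, was at 1063 and 1090 CPM against 1297 and 1365 CPM (log2 0.35 ± 0.09, adjusted p = 0.127, and 1.73e-05 with the block).

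Of the cell cycle list 1 gene passed. All 22 had a positive difference, with a median of log2 0.26. Cdk1, the mitotic kinase, alone passed, at 168 and 180.5 CPM in CPI and 226 and 258 CPM in CPI + ABT-317 (log2 0.52 ± 0.10, adjusted p = 0.037), and 15 passed with the block. Of the heat shock genes, Hsph1 was at 171 and 174 CPM against 112 and 101 CPM (log2 −0.65 ± 0.11, adjusted p = 0.0216).

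Genes typical of immune cells were among those lower in gene-rich cells. Ccl8 was at 26.6 and 25.4 CPM in CPI and at 2.58 and 3.12 CPM in CPI + ABT-317 (log2 −3.14 ± 0.18, adjusted p = 1.20e-04), Lyz2 at 111 and 141 CPM against 37.3 and 25.5 CPM (log2 −1.95 ± 0.29, adjusted p = 0.0142), and Cd74 at 122 and 105.5 CPM against 46.6 and 47.7 CPM (log2 −1.23 ± 0.17, adjusted p = 0.0096). The summed markers of T cells were at 24.6 and 21.96 CPM in CPI and at 1.37 and 1.09 CPM in CPI + ABT-317, those of macrophages at 289 and 336 CPM against 156 and 122 CPM, and Ptprc at 11.1 and 6.43 CPM against 2.84 and 1.74 CPM. Y-linked genes were at 3.82 and 3.48 CPM against 0.798 and 0.597 CPM, and fibroblast markers at 1645 and 1620 CPM against 1626 and 1537 CPM. CPI sums thus held more RNA of immune cells, and the part of this in the result was not tested. Col1a1, at 54.1 and 75.3 CPM against 23.9 and 17.3 CPM (log2 −1.59 ± 0.20, adjusted p = 0.00627), had no such difference where the own hashtag had to be at least 2 times the next (log2 0.16).

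The 122 antibodies of the panel, 9 of them isotype controls, were read on the same cells and played no part in drawing the classes. Levels are given per 1000 antibody UMIs of the class. The isotype controls summed to 18.6 to 21.3 per 1000 in every sum, and single controls lay between 0.869 and 4.45 per 1000. In Arg1 myeloid cells 11 antibodies (9.02%) passed, 7 higher and 4 lower in CPI + ABT-317, of which 1 and 4 passed with the block. In macrophages 9 (7.38%) passed, all lower, with 25 at an unadjusted p under 0.05, and with the block 8 were higher and 11 lower. In gene-rich cells 32 (26.2%) passed, 9 higher and 23 lower, and with the block 21 were higher and 25 lower. Leaving out 1 sum left 1 to 3 higher and 1 or 2 lower in Arg1 myeloid cells and 2 or 3 higher in gene-rich cells, and macrophages had 0 lower without CPI + ABT-317 in reaction 1 and 4 without it in reaction 2.

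The I-A/I-E antibody, which binds MHC class II at the surface, was lower in CPI + ABT-317 in all 3 classes. In Arg1 myeloid cells it was at 25.4 and 25.2 per 1000 in CPI and at 6.85 and 8.17 in CPI + ABT-317, 3.43-fold lower (log2 −1.78 ± 0.09, adjusted p = 5.36e-04), and still log2 −1.46 (adjusted p = 0.0194) within sub-cluster 44. In macrophages it was at 19.5 and 20.6 against 9.09 and 9.80 per 1000 (log2 −1.10 ± 0.11, adjusted p = 0.00576), and log2 −0.77 (adjusted p = 0.0205) within cluster 2. In gene-rich cells it was at 7.36 and 8.93 against 2.45 and 2.17 per 1000, the latter within the range of the isotype controls (log2 −1.81 ± 0.15, adjusted p = 0.00106). The CPI sums of gene-rich cells also held more RNA of immune cells, as given above. Antibodies were not compared under the stricter hashtag rules or without mixed-marker barcodes. The part of either in the antibody levels was not tested. In macrophages the mRNA of the 9 MHC class II genes had the opposite sign, none of them passing.

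The Ly-6A/E antibody, which binds the product of Ly6a, was at 7.51 and 7.76 per 1000 in CPI and at 13.7 and 13.8 in CPI + ABT-317 on Arg1 myeloid cells (log2 0.83 ± 0.03, adjusted p = 3.36e-04). Protein and mRNA of this gene were thus both higher in that class, while the protein did not pass within sub-cluster 44 (log2 0.51, adjusted p = 0.221), in macrophages, or in gene-rich cells (adjusted p = 0.755 and 0.0684, the latter 0.0164 with the block). CD9, a tetraspanin, was at 21.2 and 22.7 against 12.1 and 12.1 per 1000 (log2 −0.89 ± 0.04, adjusted p = 3.84e-04, and −0.27 with an adjusted p of 0.250 within sub-cluster 44), while its mRNA, at 367 and 360 against 472 and 475 CPM, did not pass (adjusted p = 0.173). CD48, an adhesion protein of leukocytes, was at 7.68 and 8.77 against 4.96 and 5.44 per 1000 in Arg1 myeloid cells, at 7.25 and 8.23 against 5.40 and 5.76 in macrophages, and at 4.00 and 4.25 against 2.12 and 2.04 in gene-rich cells (log2 −0.69, −0.49, and −0.98, adjusted p = 0.0153, 0.0477, and 0.00124). CD38, an ectoenzyme that consumes NAD, was at 4.88 and 3.37 against 1.78 and 1.86 per 1000 on macrophages (log2 −1.20 ± 0.18, adjusted p = 0.0179) and at 2.48 and 2.67 against 1.49 and 1.497 on gene-rich cells (log2 −0.78 ± 0.05, adjusted p = 6.68e-04). All 4 CD38 and all 4 CD48 values on gene-rich cells lay within the range of the isotype controls of that class, 0.926 to 4.45 per 1000, and of the CD38 values on macrophages only the 4.88 of CPI in reaction 1 lay above the range there, 0.869 to 3.69. CD90.2, which marks T cells, was at 1.495 and 1.62 against 1.06 and 1.06 per 1000 on macrophages and at 2.89 and 2.48 against 0.929 and 0.867 on gene-rich cells (log2 −0.58 and −1.58, adjusted p = 0.00439 and 0.00105). All of these CD90.2 values lay within or below the range of the isotype controls.

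**Figure D5:**
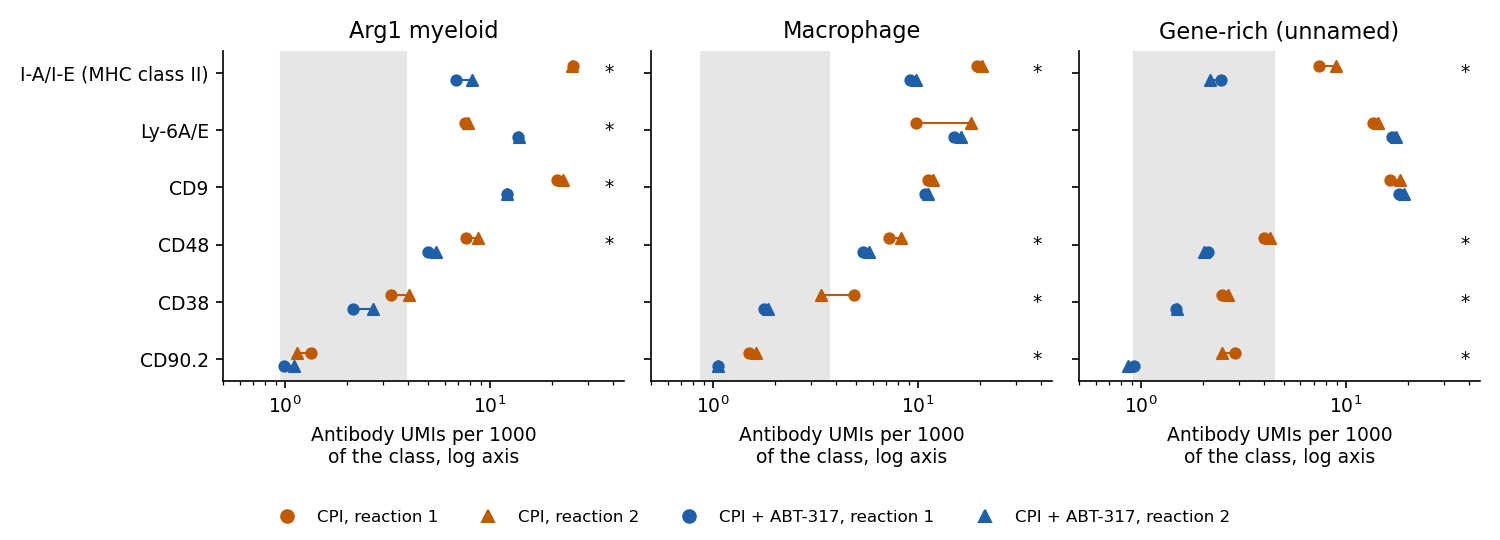
Levels of the 6 surface antibodies described above in Arg1 myeloid cells, macrophages, and gene-rich cells, in antibody UMIs per 1000 of the class on a log axis, with 1 point per treatment and reaction and a grey band for the range of the isotype controls. An asterisk marks an adjusted p of 0.05 or less; I-A/I-E is at 25.4 and 25.2 in CPI against 6.85 and 8.17 in CPI + ABT-317 in Arg1 myeloid cells and is lower in all 3 classes.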

How the data were processed

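The authors deposited gene and antibody counts, 1 matrix of UMI counts per reaction, made from a droplet 5′ scRNA-Seq kit with Cell Ranger (3.1.0 per the submitters' processing notes, while the study's methods and the file headers name other versions) on mm10. The 2 reactions each pooled 4 treatments. Cells were assigned by the hashtag rule given above; hashtags were the only check on cells from different treatments sharing a droplet, and no other doublet caller was run. Counts were scaled per cell, the 2000 most variable genes were reduced to 40 components, and k-means clusters were joined into 16 groups. A group took a name where at least 3 markers, each at least 1.5-fold up, led it. Raw counts were summed per class, treatment, and reaction, and sums of at least 30 cells were tested with edgeR 4.0.16 (R 4.3.3), using TMM factors, the quasi-likelihood test, and Benjamini-Hochberg adjustment over all genes, antibodies, or classes tested. The fit held all treatments, except for Arg1 myeloid cells, where only the 4 sums of CPI and CPI + ABT-317 were large enough. DESeq2 1.42.0 was an alternative.

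On simulated data, edgeR recovered 81.0% to 97.7% of 4-fold and 35.6% to 77.2% of 2-fold changes across the 3 classes and called 2 to 7 unchanged genes. The changed genes were drawn from those with a total count at or above the median. Each sum was drawn independently, without the correlation within a reaction given next, so recovery in the real data may differ. The replicate number is the reaction, a shared run of the assay, and deviations of sums with the same number correlated at 0.109 in Arg1 myeloid cells and at 0.239 to 0.811 elsewhere, so many results are also given with the reaction as a block. With the block Arg1 myeloid cells had 300 higher and 264 lower genes. In the mix T cells were then at log2 −4.81, macrophages at 1.69, fibroblasts at −6.00, and gene-rich cells at 2.72. Intervals and limits cover counting error only. Genes named were the 10 with the largest difference in each direction among those with an adjusted p of 0.05 or less, at least 20 CPM in the higher group, and no overlap, the 4 with the smallest p of each list, and the 6 such antibodies, of which the more telling are described. The IFN-γ members and promoters outside this rule were chosen after their values were seen. The class members and gene lists were chosen with earlier results of these data known. Gene positions were taken by identifier from a GRCm38 annotation. The values of 1 gene of the IFN-γ list are not reported here.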

Additional observations from a re-analysis of the deposited data

Results flagged for a closer look

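Fabp4 and Tmem176b, an ion channel subunit, were called in opposite directions in different classes, and the difference between the classes was not tested. Fabp4 was lower in CPI + ABT-317 in Arg1 myeloid cells, at 87.7 and 154.4 CPM in CPI against 9.5 and 3.9 CPM (log2 −3.99), and higher in gene-rich cells, at 37.7 and 40.7 CPM against 92.9 and 97.2 CPM (log2 1.33). Tmem176b was lower in Arg1 myeloid cells, at 111.1 and 115.2 CPM against 6.3 and 19.4 CPM (log2 −3.13), and in macrophages, at 175.6 and 184.8 CPM against 60.3 and 93.4 CPM (log2 −1.15), and higher in gene-rich cells, at 16.2 and 18.5 CPM against 29.8 and 30.9 CPM (log2 0.87). A lack of overlap in these classes was part of the rule that flagged both genes.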

How the results depend on the processing

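CPI and CPI + ABT-317 differed in depth, in hashtag separation, and in the makeup of the classes, in both reactions. Of 1767 values of named genes under alternatives, 1398 kept direction and call, 358 kept direction but not the call, and 11 turned; of 120 for antibodies, 86 kept the call and 34 lost it. The cause of these changes was not tested.

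For Arg1 myeloid cells, 207 higher and 188 lower genes became 93 and 66 with DESeq2, 89 and 73 with cells thinned to 1000 UMIs, and 10 and 3 within sub-cluster 44, where 11 of the 395 genes passed, 308 were tested, and 14 had the opposite sign. Within it Gpnmb was at log2 0.87, Il1b at −0.029, and Ptgs2 at −0.11. For gene-rich cells, 17 higher genes became 667 with the reaction as a block, 45 with only the 4 sums compared, 58 with DESeq2, 9 with library size only, 148 with no filter, 53 with a hashtag lead of 2, 3 when thinned, and 35 with the own hashtag at least 2 times the next. The 141 lower genes became 611 with the block, 336 with 4 sums, 338 with DESeq2, 445 with no filter, 17 when thinned, and 67 with the 2-times rule, under which Col1a1 was at 0.16, Col1a2 at 0.081, Serping1 at 0.15, and Meg3 at 6.60 (0.68 with a lead of 2). Of the 158 genes called, 54 of 139 tested were still called with a lead of 2 and 4 had the opposite sign, 34 of 136 and 7 with the 2-times rule, and 16 of 66 and 2 when thinned; 16 were still called without CPI in reaction 1 and 27 without it in reaction 2. For macrophages, 33 higher genes became 361 with the block, 211 with no filter, 188 with the 2-times rule, and 2 within cluster 2; the 60 lower became 323, 151, 186, and 3, and 37 when thinned. Within cluster 2 Ccl6 was at 0.30, Ccl8 at 0.011, and Timp2 at 0.13.

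Leaving out 1 sum gave 131 to 271 higher and 120 to 208 lower genes in Arg1 myeloid cells, 2 to 9 and 16 to 107 in gene-rich cells, and 8 to 64 and 22 to 56 in macrophages. For antibodies it gave 1 to 3 higher and 1 to 2 lower in Arg1 myeloid cells, 2 to 3 and 16 to 22 in gene-rich cells, and 0 to 3 and 0 to 8 in macrophages. With the block, 1 antibody was higher in Arg1 myeloid cells, 21 in gene-rich cells, and 8 in macrophages; with scaling by isotype controls these were 2, 1, and 1. Within sub-cluster 44, 0 were higher and 1 lower (19 at an unadjusted p under 0.05).

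In the mix, Arg1 myeloid cells were at log2 −0.43 with the block, −0.42 with 4 sums, −1.26 with a lead of 2, −1.28 with the 2-times rule, and 1.61 with classes from marker UMIs, and dendritic cells at −1.51, −1.53, −4.05, −1.56, and 2.42, −1.66 with fewer than 2500 genes, and −1.57 without barcodes holding 3 UMIs of the other compartment's markers. The −4.05 of dendritic cells came from 1 and 0 CPI + ABT-317 cells, beside 21 and 17 in CPI. Of the marker-UMI dendritic cells, 1403 of CPI + ABT-317 and 109 of CPI matched the plasmacytoid list, and the others were fewer in CPI + ABT-317. Without those holding mixed markers endothelial cells were at −3.96 and pericytes at −4.45, with 0 cells of either in both sums of CPI + ABT-317. With fewer than 2500 genes endothelial cells were at −1.74, fibroblasts at −3.72, pericytes at −4.05, and gene-rich cells at 4.03. Classes from marker UMIs gave −0.71 for macrophages, −2.03 for neutrophils, and 0.089 for fibroblasts. Neutrophils were at −0.068 with a lead of 2 and 1.98 with the 2-times rule, with 5 and 1 CPI cells left under either. The 2-times rule and the single clusters were added after the data were seen. Too few cells were left for Arg1 myeloid cells with a lead of 2 and for gene-rich cells with fewer than 2500 genes or without the mixed-marker barcodes.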

Other observations

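Classes with too few CPI + ABT-317 cells for a test still gave levels, from 2 to 27 cells a sum in that group. In dendritic cells, Ccr7, the receptor that guides them to lymph nodes, was at 809 and 786 CPM in CPI and at 399 and 175 CPM in CPI + ABT-317, and the chemokine Ccl22 at 655 and 577 CPM against 133 and 204 CPM. The CPI + ABT-317 levels came from 18 and 6 UMIs of Ccr7 and 6 and 7 UMIs of Ccl22. In neutrophils the chemokine Cxcl2 was at 21795 and 19649 CPM against 38737 and 57023 CPM. The own hashtag of the CPI neutrophils had a median of 85 and 56.5 UMIs, beside 76 and 59 UMIs of the highest other hashtag. Which treatment they belong to is therefore uncertain. In endothelial cells Cxcl9 was at 90.4 and 53.6 CPM against 1471 and 834 CPM. Icam1 went the other way, at 111 and 63.3 CPM against 23.4 and 42.4 CPM, from 1 and 3 UMIs in CPI + ABT-317. In reaction 1 of CPI + ABT-317, 1 of the 5 endothelial cells held 35079 of the 42816 UMIs. In fibroblasts Gbp2 was at 68.4 and 38.4 CPM against 138 and 184 CPM, while Col1a1 was at 20118 and 22282 CPM against 13201 and 16028 CPM. Of other interferon-induced genes in fibroblasts, Ly6a was at 2162 and 2643 CPM against 1763 and 1807 CPM, and Cxcl9 at 76.4 and 35.6 CPM against 54.2 and 69.0 CPM. The groups overlapped for Cxcl9 in fibroblasts, and none of these genes was tested. They are a selection of the genes read in these classes, and the share without overlap over all genes was not counted. Among the others, Il12b in dendritic cells, at 347 and 277 CPM against 865 and 58.3 CPM, overlapped. So did S100a8 and Il1b in neutrophils and Cdh5 and Plvap in endothelial cells.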
